A study of Mus musculus with 47 samples.

Results

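The genes described here are 46 genes of the lysosome of the mouse mammary epithelium. They were found by their symbols among the 17078 genes of the expression table, which held all 46. By role, 10 encode cathepsins or the related protease legumain, and 12 encode other hydrolases and their activators. Membrane proteins, lipid transfer proteins and regulators are encoded by 8. Of the proton pump (V-ATPase), 8 encode subunits of the membrane sector (V0) and accessory proteins, and 8 encode subunits of its cytosolic sector (V1). RNA-seq was carried out on luminal (Lin-CD24+CD29lo) and basal (Lin-CD24+CD29hi) epithelial cells, sorted from FVB/N mice, mated at 8 weeks of age where pregnant, at 8 time points, to follow both subtypes through the reproductive cycle. The groups were 10-week-old mice that had not been pregnant (W10), pregnancy days 3.5 and 14.5 (P3.5, P14.5), lactation days 3 and 10 (L3, L10), 2 days after pups were withdrawn at L10 (involution day 2, Id2), 4 weeks after weaning (Iw4), and 4-month-old mice that had not been pregnant (M4), the age control for Iw4. There were 24 luminal and 22 basal libraries, 3 for each combination of time point and subtype except basal P14.5 and basal L10 with 2 each. Each library came from cells of 4 pooled mice, and luminal and basal cells with the same number were collected in the same sort.

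Lysosomes digest proteins, lipids, glycans and whole organelles with hydrolases that work at acid pH. The acid is supplied by the V-ATPase, in which the V1 sector splits ATP and the V0 sector carries protons across the membrane, and many of these genes are under the control of the transcription factor TFEB. When suckling stops, milk accumulates, milk-secreting luminal cells take up milk fat and shed cells, and leakage of cathepsins from lysosomes has been tied to their death, so the lysosome is a known actor of early involution.

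Between 4398806 and 20023054 reads fell on genes in a library (median 8518616). Values are CPM, reads scaled by the authors by an effective size of each library, which can differ from its read total. Summed CPM are therefore not parts of a fixed total. The smallest measurable level was taken as 3 reads, which correspond to 0.170 to 1.05 CPM. Marker genes were used to check the labels. Summed over 6 luminal markers, luminal libraries at L10 held 3848 to 4159 CPM and basal libraries 580 to 757. Basal markers in luminal L10 replicates 4, 5 and 6 summed to 364, 2509 and 970 CPM, against 139 to 241 CPM in luminal W10 and 148 to 294 CPM in luminal Id2. Summed over 8 basal markers, such as *Krt5*, *Krt14* and *Acta2*, basal libraries held 20260 to 29810 CPM at W10 and 55810 and 64120 at L10. The basal libraries at Id2 stood apart: replicates 2, 4 and 6 held 1357, 17900 and 1048 CPM of basal markers. In replicate 2, 6 endothelial markers summed to 9485 CPM (56.0 to 127 in basal W10, with *Cdh5* the highest at 4160), and in replicate 6, 7 fibroblast markers summed to 72200 CPM (221 to 352 in basal W10, with *Col1a1* the highest at 27790). Fibroblast markers summed to 3042 CPM in replicate 2 and 10220 CPM in replicate 4, and to 1258 and 1606 CPM in basal L10. A list of 5 pericyte markers, led by *Rgs5*, summed to 2669, 10460 and 2367 CPM in these 3 libraries and to 8583 and 15270 CPM in basal L10, against 92.0 to 118 CPM in basal W10. Adipocyte (3 genes), erythroid (2 genes) and lymphocyte (3 genes) markers in basal Id2 replicates 2, 4 and 6 summed to 3720, 612 and 242, to 136, 5.72 and 9.53, and to 3.75, 11.8 and 48.0 CPM. In basal L10 the same lists summed to 765 and 742, to 21.0 and 9.50, and to 19.6 and 16.4 CPM, and in basal W10 to 12.6 to 39.4, 1.54 to 2.98 and 0.615 to 2.14 CPM. Single genes carried the first and the last of these sums: at basal Id2 *Fabp4* was at 3719, 598 and 241 CPM, while *Lep* and *Plin1* had means of 3.93 and 0.861 CPM against 222 and 17.5 CPM at L10, and *Cd3e* was at 3.12, 9.98 and 47.8 CPM, while *Cd4* and *Cd8a* reached no more than 0.468 and 1.55 CPM. The antibodies used to remove other cells in the sort included CD31 (*Pecam1*), Ter-119 and CD140a (*Pdgfra*, listed as against the human protein). *Pecam1* was at 3205, 114 and 81.5 CPM and *Pdgfra* at 51.5, 301.3 and 2002 CPM in the same 3 libraries. Only replicate 4 lay within the range of the basal libraries of other time points in its summed basal markers (12520 CPM or more). *Acta2* (8399 CPM), *Myh11* (5346) and *Mylk* (3509) led its sum. The highest basal Id2 values of *Krt5*, *Krt14*, *Trp63*, *Cnn1* and *Oxtr* were 156, 49.0, 26.55, 316 and 98.2 CPM. Their lowest basal W10 values were 1469, 458.5, 810, 860 and 1133 CPM. The fibroblast sum of replicate 4 was above that of every basal library of other time points but 1 at P14.5 (11890 CPM). Counts of called genes in basal cells at Id2 are given with all 3 libraries and with replicate 4 alone, a choice made after the marker sums had been seen. In luminal cells 12 macrophage and monocyte markers summed to 54.0, 237 and 333 CPM in Id2 replicates 2, 4 and 6, 37.0 to 160 CPM at L10 and 4.36 to 7.36 CPM at W10, although the sort removed cells that carried CD45 or CD11b. By their means *Laptm5* (35.9 CPM), *Csf1r* (34.9), *C1qc* (32.4) and *Lyz2* (29.4) led that list at Id2, and none of its 12 genes was at 0 in luminal Id2. Luminal markers summed to 3391, 2356 and 2135 CPM in the same libraries. Fibroblast markers summed to 224, 488 and 5224 CPM in luminal Id2, 26.7 to 814 CPM in luminal L10 and 120.4 to 405 CPM in luminal W10. In sorted bulk cells, fewer cells of a type and less RNA per cell cannot be told apart.

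**Figure D1:**
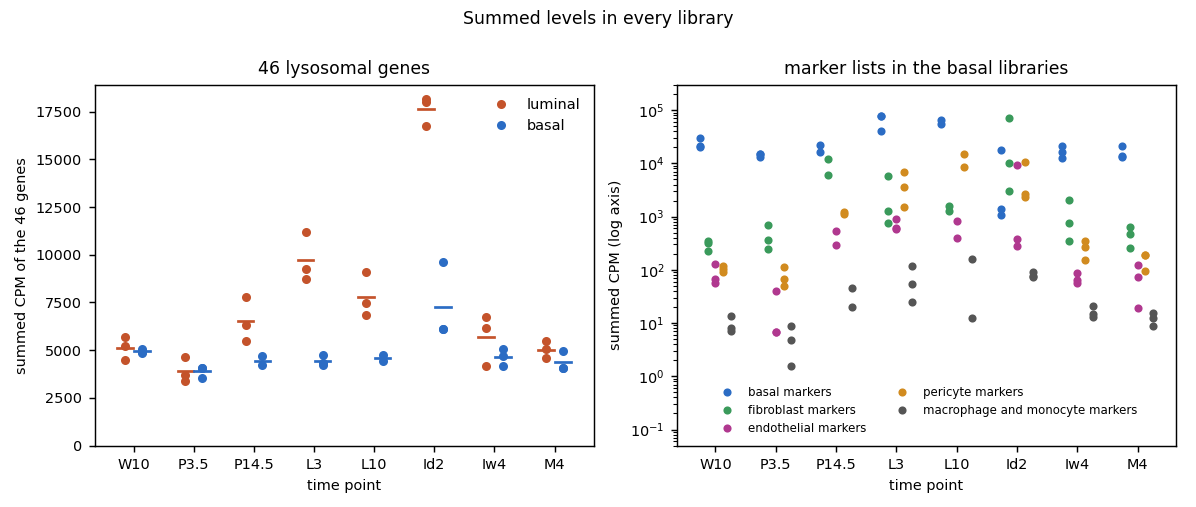
Left, summed CPM of the 46 lysosomal genes in every library (points) with condition means (bars), luminal and basal, over the 8 time points. Luminal Id2 libraries sit between 16740 and 18180, above all other libraries. Right, summed CPM of 5 marker lists in the basal libraries on a log axis, where basal markers fall to 1048 and 1357 CPM in 2 of the 3 Id2 libraries.

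The lysosomal genes as a whole were highest in luminal cells 2 days after weaning. Their summed level in luminal libraries was 5139 CPM ± 620 (SD, n = 3) at W10 and 7804 at L10, and reached 18000, 18180 and 16740 CPM in Id2 replicates 2, 4 and 6. From L10 to Id2 the mean sum went from 3166 to 9385 CPM for cathepsins and legumain, from 1750 to 3042 for the other hydrolases, from 1466 to 2743 for the membrane proteins and regulators, from 805 to 1502 for V0 and from 617 to 970 for V1. As a share of all reads on genes, which is not affected by the authors' scaling, the mean was 0.593% at L10 and 1.12% at Id2. At L3 the scales differed in direction: the summed level was 9720 CPM against 5139 at W10, while the share of all reads was 0.485% against 0.628%. They also did at L10, with 7804 CPM and 0.593% of all reads. A list of 7 milk protein genes took 44.0% of luminal reads at L3 and 1.82% at W10. Basal sums stayed between 3898 CPM (P3.5) and 4939 CPM (W10) as means of the time points other than Id2, where the 3 libraries held 9645, 6090 and 6095 CPM. As a share of all reads the basal mean was 0.600% at Id2, against 0.553% at W10, 0.3745% at L10, 0.597% at Iw4 and 0.559% at M4. The 3 basal Id2 libraries held 0.728%, 0.561% and 0.511%. By limma's moderated F test across the 8 time points (false discovery rate, FDR, under 0.01) 38 of the 46 genes varied in luminal cells, where 34% of all genes did, and 33 of 46 in basal cells, where 44.5% of all genes did. *Ctsh*, *Psap*, *Cd63*, *Npc1*, *Atp6v0c*, *Atp6v1b2*, *Atp6v1f* and *Atp6v1h* did not pass in luminal cells.

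Per kilobase of annotated exon *Ctsd*, *Lamp1* and *Psap* were among the 4 highest genes in both subtypes at W10. At luminal W10 *Ctsd* was at 283 CPM per kb, *Psap* at 138 and *Lamp1*, the main glycoprotein of the lysosomal membrane, at 113, and at basal W10 *Ctsd* was at 180, *Ctsl* at 150, *Lamp1* at 137 and *Psap* at 123. At luminal Id2 *Ctsd* stood at 1751 CPM per kb, above *Lamp1* at 370, *Ctsb* at 345 and *Ctsl* at 306. The lowest at luminal Id2 were *Tfeb* at 1.04, *Ctsf* at 1.13 and *Hexa* at 2.40. Genes of the proton pump at luminal Id2 lay between 3.06 (*Atp6v1h*) and 140 CPM per kb (*Atp6ap1*). Annotated exon length stands in for the length that was read, so close values in these orders carry no ranking.

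For 23 of the 46 genes every luminal Id2 library was above every one of the 21 luminal libraries of the other time points, and for 0 it was below them. Among all genes this held for 2.77% and 1.3%. The 23 were 5 of 10 cathepsins and legumain, 6 of 12 other hydrolases, 5 of 8 membrane proteins and regulators, 6 of 8 V0 and accessory genes and 1 of 8 V1 genes (*Atp6v1a*). In basal cells this held for 9 of 46 above and 0 below, against 2.34% and 3.53% of all genes. The 9 were *Ctsb*, *Lgmn*, *Gla*, *Asah1*, *Lamp2*, *Atp6v0a1*, *Atp6v0d1*, *Atp6v1b2* and *Atp6v1h*.

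**Figure D2:**
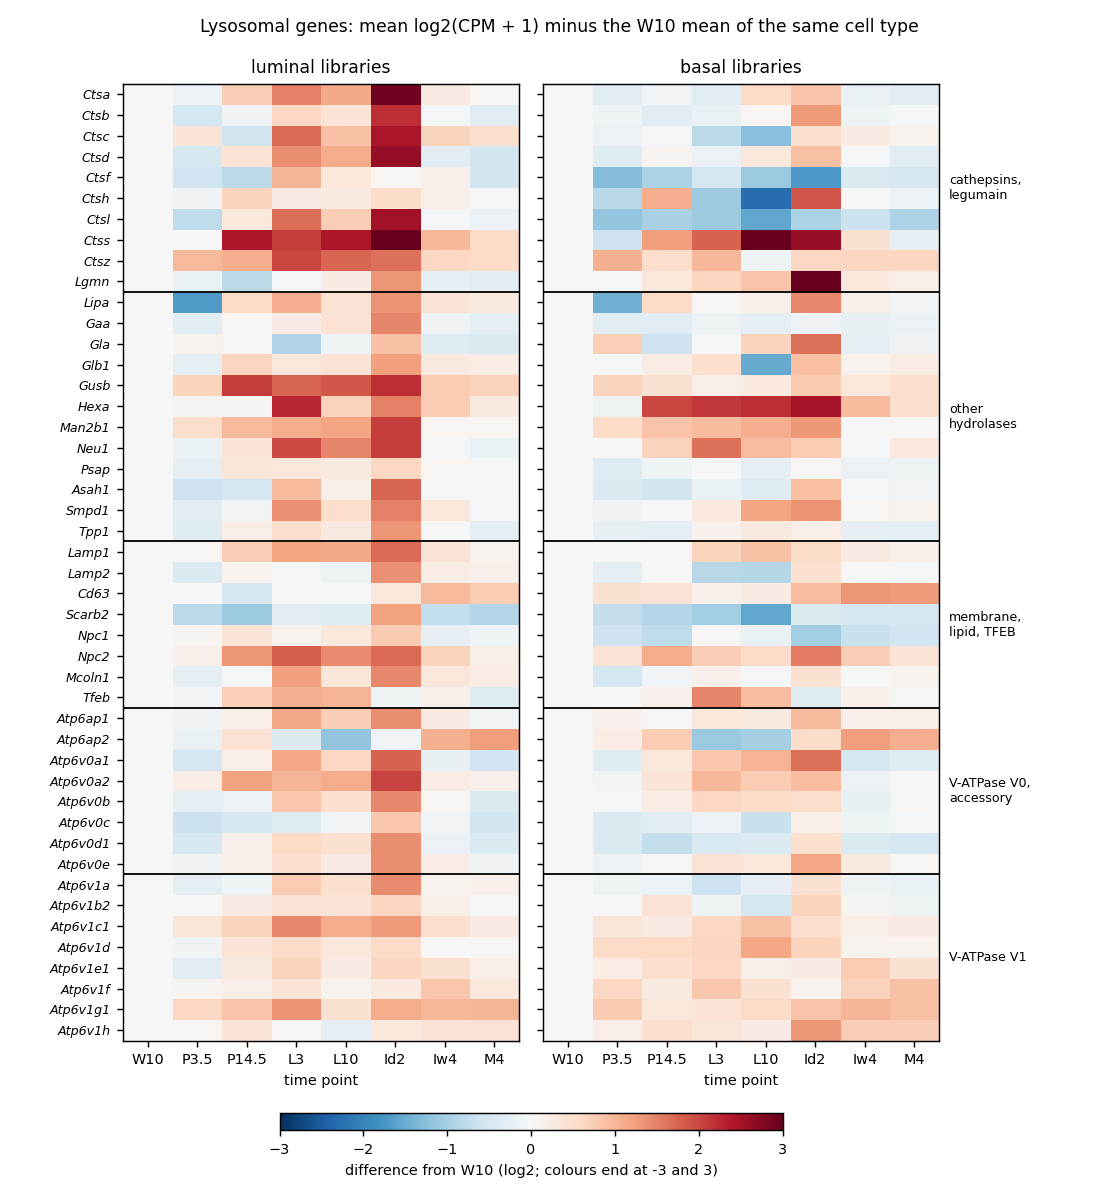
Mean log2(CPM + 1) of each of the 46 genes at each time point minus its W10 mean, for luminal (left) and basal (right) libraries, with colours ending at -3 and 3 and lines between the roles. In the luminal Id2 column 44 of 46 values lie above 0, and in basal cells *Lgmn*, *Hexa* and *Ctss* are among the most raised at Id2 and *Ctsf* is lowered.

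To ask what changed when suckling stopped, luminal Id2 was compared with luminal L10. Calls were made by limma on log2(CPM + 1) with Benjamini-Hochberg adjustment over all 17078 genes, and needed both an FDR under 0.01 and a change of 2-fold or more. Of the 46 genes 11 rose and 1, *Tfeb*, fell, where 2.15% of all genes rose and 2.41% fell. At the same FDR with no limit on the fold 13 rose and 1 fell, where 2.45% and 2.68% of all genes did. The median change was 0.90 on the log2 scale over the 46 genes and -0.01 over all genes, and 43 of 46 changes were above 0. Without each library in turn 8 to 13 genes rose, and 9 did without L10 replicate 5, the luminal library with the highest basal marker sum of this comparison. Of the other marker lists, 11 of 12 macrophage and monocyte markers and 6 of 7 fibroblast markers had changes above 0 from L10 to Id2 (medians of 1.38 and 1.90 on the log2 scale, 1 and 0 called higher), and the median was -0.66 over the 6 luminal markers and -1.23 over the 8 basal markers (0 and 2 called lower). Of markers of further cell types, the means of *Rgs5* (58.2 to 153 CPM) and *Fabp4* (34.4 to 78.2) went up. Those of *Cd3e* (78.35 to 8.00 CPM) and *Notch3* (142.6 to 56.8) went down. The part of these cell types in the changes of the 46 genes was not tested. With the spread taken from the L10 and Id2 luminal libraries alone, 0 rose and 0 fell.

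Of the 10 cathepsins and legumain 5 rose, and the median change of the role was 1.37 on the log2 scale. *Ctsd* encodes cathepsin D, an aspartic protease. It was at 993, 1656 and 1813 CPM in the luminal L10 libraries and at 4159, 3993 and 4201 CPM at Id2, so that the groups did not overlap. The log2 fold change was 1.52 ± 0.28 (SE), adjusted p = 0.000408 by limma. In GENCODE vM21 another gene, *Gm49369*, covers 34.4% of the exon bases of *Ctsd*, the only one of the 46 with an overlap of at least 25%, and whether this touched the authors' counts was not tested.

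*Ctsb* encodes cathepsin B, a cysteine protease. It was at 511, 562 and 715 CPM in the luminal L10 libraries and at 2419, 2039 and 1795 CPM at Id2, and its highest luminal level at any other time point was 735 CPM, in an L3 library. The log2 fold change was 1.81 ± 0.26 (SE), adjusted p = 1.81e-05 by limma. *Ctsa*, cathepsin A or protective protein, which is needed for the stability of neuraminidase and beta-galactosidase, went from 228, 192 and 226 CPM to 853, 717 and 666 CPM, a log2 fold change of 1.78 ± 0.24 (SE). *Ctsl*, cathepsin L, went from 421, 660 and 685 CPM to 1567, 2471 and 1914 CPM, a log2 fold change of 1.76 ± 0.31 (SE). *Ctsc*, cathepsin C or dipeptidyl peptidase 1, also rose (1.55 on the log2 scale). The other 5 genes of this role were not called by limma: *Lgmn* was at 1.07 ± 0.39 (adjusted p = 0.0658), *Ctss* at 1.22 ± 0.58 (adjusted p = 0.181), and *Ctsf*, *Ctsh* and *Ctsz* lay between -0.26 and 0.28 on the log2 scale.

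Among the other hydrolases 2 of 12 rose from L10 to Id2 in luminal cells. *Asah1*, acid ceramidase, which cleaves ceramide, was at 33.7, 59.2 and 47.7 CPM at L10 and at 153, 144 and 119 CPM at Id2, a log2 fold change of 1.57 ± 0.27 (SE), adjusted p = 0.000117 by limma. *Tpp1*, tripeptidyl peptidase 1, was at 96.7, 111 and 170 CPM and then at 275, 237 and 254 CPM, a log2 fold change of 1.05 ± 0.24 (SE). For neither gene did the L10 and Id2 libraries overlap. All 12 changes of this role were above 0, and *Gaa* (acid alpha-glucosidase) and *Gla* (alpha-galactosidase A), both at 1.03, had adjusted p-values of 0.0114 and 0.014 by limma. *Glb1*, beta-galactosidase, was at 35.0, 23.6 and 40.5 CPM and then at 74.7, 57.3 and 46.0 CPM (0.83 ± 0.32). *Psap*, the precursor of the saposins that present lipids to these enzymes, was at 501, 348 and 544 CPM at L10 and 680, 624 and 469 CPM at Id2 (0.36 ± 0.22), so that its libraries overlapped.

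Of the membrane proteins *Scarb2* and *Lamp2* rose. *Scarb2* encodes LIMP-2, a membrane protein that also serves as a sorting receptor for the lysosome. It was at 55.2, 66.4 and 90.5 CPM in luminal L10 and at 276, 187 and 176 CPM at Id2, a log2 fold change of 1.58 ± 0.26 (SE), adjusted p = 7.64e-05 by limma. *Lamp2*, a coat protein of the lysosomal membrane with a part in autophagy, was at 326, 349 and 474 CPM and then at 1022, 1030 and 1222 CPM, a log2 fold change of 1.52 ± 0.22 (SE). *Tfeb* went the other way. It was at 15.4, 15.9 and 11.6 CPM in luminal L10 and at 5.73, 5.05 and 6.92 CPM at Id2, a log2 fold change of -1.14 ± 0.27 (SE), adjusted p = 0.00426 by limma, and its luminal level at Id2 differed from W10 by -0.12 ± 0.27 (adjusted p = 0.807). The call of *Tfeb* was lost without L10 replicate 4 or 5 or without Id2 replicate 2 or 4. Its relatives *Tfe3* and *Mitf* were not called by limma from L10 to Id2 (-0.13 ± 0.29 and 1.06 ± 0.53, adjusted p = 0.844 and 0.209).

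The sectors of the proton pump were counted separately, and the difference between them was not tested. Of the 8 V0 and accessory genes 2 rose at a fold of at least 2 and 4 with any fold, with a median change of 0.93 on the log2 scale, while 0 of the 8 V1 genes were called by limma at any fold, with a median of 0.33. At an unadjusted p under 0.05 by limma all 8 V0 and accessory genes and 3 V1 genes were higher, and edgeR called 2 and 0. *Atp6v0a1*, the a1 subunit, which lines the path of the protons, was at 81.4, 70.3 and 74.4 CPM in luminal L10 and at 159, 195 and 149 CPM at Id2, a log2 fold change of 1.14 ± 0.21 (SE), adjusted p = 0.000413 by limma. *Atp6v0e* was at 102, 65.5 and 85.1 CPM and then at 219, 192 and 146 CPM, a log2 fold change of 1.13 ± 0.27 (SE). *Atp6v0d1* and *Atp6v0a2* passed the FDR at 0.94 and 0.91, *Atp6v0d1* being at 76.4, 98.2 and 147 CPM in L10 and 237, 183 and 182 CPM at Id2. *Atp6ap1*, an accessory protein with the highest mean level of its role, was at 210, 266 and 319 CPM and then at 536, 424 and 316 CPM (0.67 ± 0.24), where the lowest Id2 library lay within the L10 range. In V1 the largest change was that of *Atp6v1a*, the catalytic A subunit, at 240, 348 and 343 CPM in L10 and 554, 545 and 651 CPM at Id2 (0.92 ± 0.25, adjusted p = 0.0112 by limma). *Atp6v1g1* was at 15.8, 27.0 and 17.1 CPM and then at 28.3, 33.9 and 30.9 CPM (0.64 ± 0.29, adjusted p = 0.145 by limma).

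**Figure D3:**
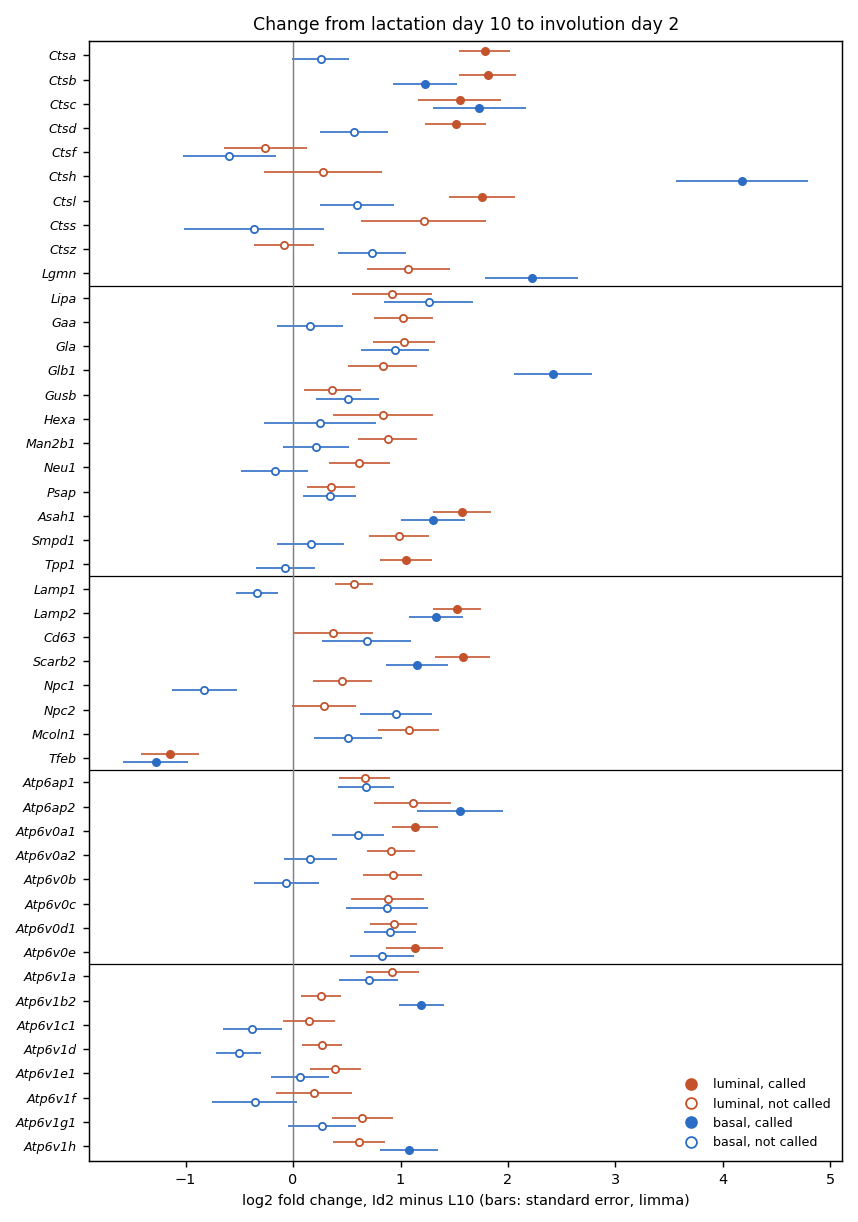
Log2 fold change from L10 to Id2 of each of the 46 genes in luminal and basal cells, with standard errors from limma. Filled points were called. In luminal cells 11 genes rise and *Tfeb* falls, and in basal cells 11 rise, led by *Ctsh*, *Glb1* and *Lgmn*, and *Tfeb* falls.

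The L10 and Id2 libraries were amplified in different batches (5 and 4), so the batch and this comparison cannot be told apart. W10 and Id2 libraries were both amplified in batch 4, on lanes 2 and 3. Of the steps that follow, P3.5 to P14.5 and L3 to L10 also lie within a batch but differ in lane, and the comparisons of Id2 share its libraries. The steps W10 to P3.5, P14.5 to L3 and Id2 to Iw4 cross batches, so there too the batch and the step cannot be told apart. Against W10, 30 of the 46 genes were higher in luminal Id2 and 0 lower, where 6.23% of all genes were higher and 4.14% lower. The lower count was also 0 at an unadjusted p under 0.05 by limma and 0 called by edgeR. Of the marker lists in this comparison, 11 of 12 macrophage and monocyte, 3 of 7 fibroblast, 1 of 6 endothelial, 2 of 5 pericyte and 1 of 3 adipocyte markers were called higher and 1 pericyte marker lower, and the median over the 6 luminal markers was -1.17 on the log2 scale with 0 called. Endothelial markers summed to 152, 246 and 74.1 CPM in luminal Id2 and 13.8 to 30.3 CPM in luminal W10, pericyte markers to 169, 291 and 249 CPM and 164 to 214 CPM, and adipocyte markers to 72.3, 117 and 45.8 CPM and 3.36 to 11.1 CPM. *Fabp4* carried the adipocyte sums in luminal Id2 (45.6 to 117 CPM), where *Plin1* was at 0 and *Lep* had a mean of 0.0678 CPM. The part of cells with these markers in the changes of the 46 genes was not tested. By role the 30 genes were 7 of 10 cathepsins and legumain, 9 of 12 other hydrolases, 5 of 8 membrane proteins and regulators, 6 of 8 V0 and accessory genes and 3 of 8 V1 genes. The median change was 1.39 over the 46 genes and -0.04 over all genes. *Ctsa* was at 89.9, 94.6 and 109 CPM at W10, a log2 fold change to Id2 of 2.91 ± 0.24 (SE). *Ctsd* differed by 2.63 ± 0.28, *Ctsl* by 2.51 ± 0.31, *Ctsc* by 2.44 ± 0.38 and *Ctsb* by 2.22 ± 0.26. Of the hydrolases, *Gusb* (beta-glucuronidase) differed by 2.22 ± 0.26, *Neu1* (neuraminidase 1) by 2.08 ± 0.28 and *Man2b1* (lysosomal alpha-mannosidase) by 2.07 ± 0.28. *Atp6v0a2* differed by 2.03 ± 0.22 and *Lamp1* by 1.71 ± 0.18. Without each library in turn 26 to 31 genes were higher, and with the spread of luminal W10 and Id2 alone 10 were.

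*Ctss*, cathepsin S, which is abundant in antigen-presenting cells, had the largest luminal change against W10, 3.64 ± 0.58 (SE), adjusted p = 1.76e-05 by limma. It was at 0.403, 1.12 and 0.996 CPM in the W10 luminal libraries, from 4, 16 and 8 reads, and at 6.92, 36.9 and 37.6 CPM in Id2 replicates 2, 4 and 6. The macrophage and monocyte markers stood in the same order at Id2 (54.0, 237 and 333 CPM), and 11 of their 12 genes were called higher against W10 and 1, *Fcer1g*, against L10. Their part in the change of *Ctss* was not tested. Of the other 9 genes of the role *Ctsh* stood in that order as well (115, 146 and 188 CPM). *Ctsl* and *Ctsc* were also lowest in replicate 2 (1567 and 163 CPM), *Ctsa*, *Ctsb* and *Ctsf* were highest there (853, 2419 and 6.72 CPM), and *Ctsd*, *Ctsz* and *Lgmn* lay between their values in the other libraries.

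The promoters of the 46 genes were searched for CACGTG, the core that TFEB and other basic helix-loop-helix factors bind, for the longer TCACGTGA, and for TCACGTGA with G before it and C after it, which is the site described for lysosomal genes. Each reads the same on both strands, and every longer match holds the shorter ones. RefSeq promoter windows (GRCm38.p6) of 300 bases, from 250 before to 50 after a start, were at hand for 37 of the 46 genes. CACGTG was in a window of 14 of the 37 and of 11% of the 11722 genes of the table with a window. TCACGTGA was in 7 of the 37 and 1.95% of the table, and the longest form in 0 of the 37 and 0.674%. The 7 stretches with TCACGTGA, in capitals, are shown because they hold the longest match found. Each is 5′ to 3′ on the strand of the gene.
Ctsa: gcaaactgTCACGTGAtgcagatg
Ctsd: cccgcgtcTCACGTGAcccgttga
Gla: gcgattgaTCACGTGAgcatctac
Mcoln1: cgccccgcTCACGTGAccgcggcg
Atp6v0d1: tactgcggTCACGTGAgacgcggt
Atp6v0e: cgcgccgaTCACGTGAgcctctgt
Atp6v1a: tttttaaaTCACGTGAtaggctta

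Their places are chr2:164833752-164833775 (+) for *Ctsa*, chr7:142387911-142387934 (-) for *Ctsd*, chrX:134601218-134601241 (-) for *Gla*, chr8:3500465-3500488 (+) for *Mcoln1*, chr8:105566053-105566076 (-) for *Atp6v0d1*, chr17:26676390-26676413 (+) for *Atp6v0e* and chr16:44139376-44139399 (-) for *Atp6v1a*. The match of *Atp6v0d1* spans the start and that of *Atp6v0e* lies just after it, in the transcribed part. From L10 to Id2 in luminal cells *Ctsa*, *Ctsd* and *Atp6v0e* of these 7 were called, and *Gla*, *Mcoln1*, *Atp6v0d1* and *Atp6v1a* were not at a fold of at least 2. A match describes the letters of the window, not a site that is bound.

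The rise at Id2 was not seen 4 weeks later. Between Id2 and Iw4, 28 of the 46 genes fell in luminal cells and 0 rose, where 6.12% of all genes fell and 4.39% rose. At an unadjusted p under 0.05 by limma 36 were lower and 1 higher, and edgeR called 28 and 0. By role 8 of 10, 8 of 12, 5 of 8, 6 of 8 and 1 of 8 fell, in the order of the roles given at the start. *Ctsd* fell by 2.95 on the log2 scale to 642, 694 and 339 CPM, *Ctsa* fell by 2.66, *Ctsl* fell by 2.58, *Ctsb* fell by 2.29 and *Atp6v0a1* fell by 1.99. Without Iw4 replicate 6 the count was 18. *Atp6ap2*, the (pro)renin receptor and an accessory protein of the pump, had a value above 0: it was at 64.0, 139 and 80.6 CPM in luminal Id2 and 171, 320 and 143 CPM at Iw4 (1.14 ± 0.36, adjusted p = 0.0198 by limma). In the same luminal libraries the means of *Csf1r* (34.9 to 1.45 CPM), *Col1a1* (768 to 51.9), *Cdh5* (71.3 to 3.31) and *Rgs5* (153 to 7.95) fell from Id2 to Iw4. Of the luminal markers, the means of *Krt8* (349 to 613) and *Krt18* (807 to 1491) rose, and that of *Elf5* (544 to 291) fell. The part of other cell types in the changes of the 46 genes was not tested. Against the age control M4, 0 genes were called at Iw4 in either direction in either subtype. At an unadjusted p under 0.05 by limma the count was 0, edgeR called 0, and of all genes 0% were higher or lower in luminal cells, and 0% were higher and 0.00586% lower in basal cells.

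**Figure D4:**
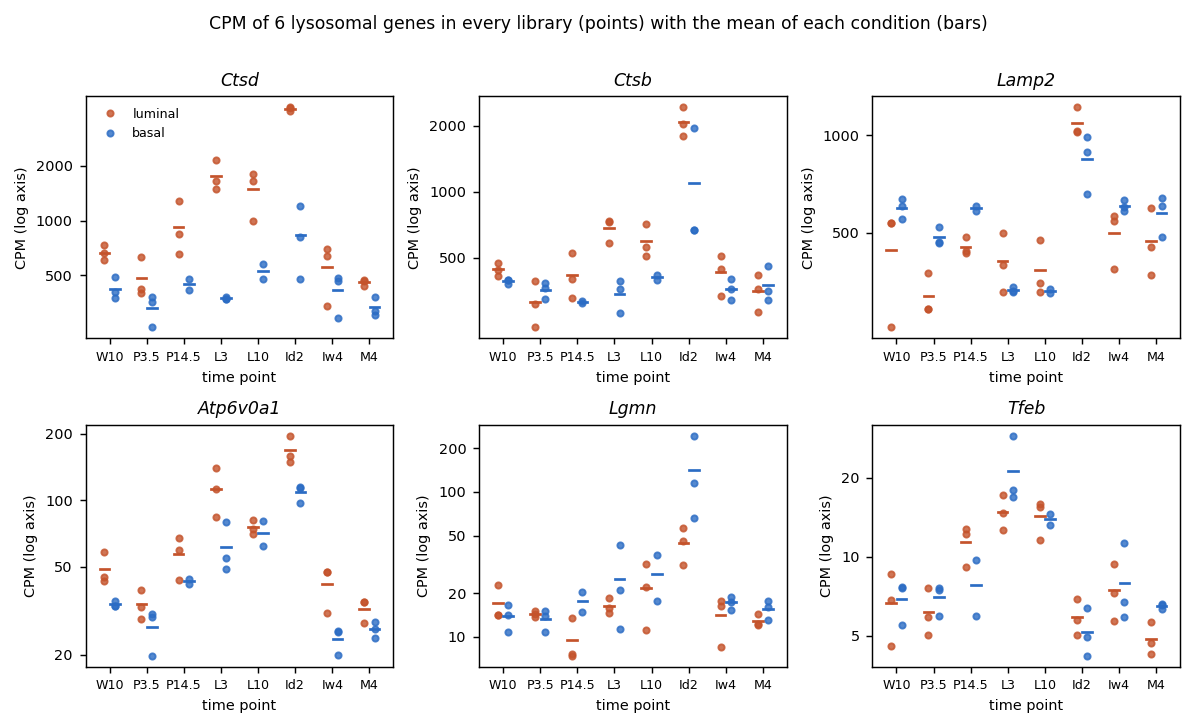
CPM on a log axis of 6 genes in every luminal and basal library (points) with condition means (bars). *Ctsd*, *Ctsb*, *Lamp2* and *Atp6v0a1* have their highest means at luminal Id2, *Lgmn* has its highest at basal Id2 (66.0 to 244 CPM), and *Tfeb* has higher means at L3 and L10 than at Id2 in both subtypes.

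The steps before weaning were compared in the same way in luminal cells. From W10 to P3.5 only *Lipa*, lysosomal acid lipase, which frees cholesterol and fatty acids, was called: it was at 447, 448 and 747 CPM at W10 and 126, 236 and 144 CPM at P3.5, so it fell by 1.70 on the log2 scale (adjusted p = 0.00438, limma), where 0.422% of all genes fell and 1.4% rose. Of the 46 genes 3 were higher and 6 lower at P3.5 at an unadjusted p under 0.05 by limma, and edgeR called 0 and 1. The call of *Lipa* was lost without W10 replicate 5 or 6 or without P3.5 replicate 2 or 6. From P3.5 to P14.5 *Lipa* rose by 2.27 ± 0.37 (SE) to 923, 655 and 815 CPM and *Gusb* rose by 1.43 ± 0.26, where 0.814% of all genes rose and 0.709% fell. There were 19 higher and 1 lower at P14.5 at an unadjusted p under 0.05 by limma, and edgeR called 2 and 0. *Gusb* was at 25.4, 19.9 and 24.9 CPM at P3.5 and 64.8, 66.0 and 62.3 CPM at P14.5.

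From P14.5 to L3 9 of the 46 genes rose and 0 fell in luminal cells, where 3.19% of all genes rose and 2.97% fell (at an unadjusted p under 0.05 by limma 19 were higher and 2 lower, and edgeR called 9 and 0). They were *Ctsc* (2.24 ± 0.38 on the log2 scale), *Hexa* (2.17 ± 0.47), *Ctsf* (1.81 ± 0.39), *Neu1* (1.58 ± 0.28), *Asah1* (1.47 ± 0.27), *Smpd1*, acid sphingomyelinase (1.45 ± 0.28), *Ctsl* (1.34 ± 0.31), *Mcoln1*, the calcium channel of the lysosome (1.27 ± 0.28), and *Atp6v0b* (1.02 ± 0.27). Without P14.5 replicate 3 or 5 the count was 5, and with the spread of P14.5 and L3 alone it was 0. Of the 9, *Hexa* and *Ctsf* had the highest mean differences toward basal cells among the 46 genes (1.87 and 1.41 on the log2 scale). *Hexa* was at 1.55, 0.492 and 1.43 CPM in luminal P14.5 and at 8.30, 17.8 and 3.86 CPM at L3, from 46, 151 and 11 reads. *Ctsf* was at 3.32, 2.85 and 1.94 CPM and then at 14.8, 17.2 and 6.31 CPM. The part of basal cells in the luminal P14.5 and L3 libraries was not tested. From L3 to L10 0 genes rose or fell, where 0.281% of all genes rose and 0.0995% fell. At an unadjusted p under 0.05 by limma 1 was higher and 9 were lower, and edgeR called 0. For *Neu1* and *Lipa* the L3 and Id2 libraries overlapped. *Neu1*, which removes sialic acid, was at 51.8, 66.3 and 53.7 CPM at L3 and 83.2, 62.3 and 43.1 CPM at Id2. *Lipa* was at 1191, 897 and 1336 CPM at L3 and at 1180, 1571 and 1364 CPM at Id2. *Ctsl* was at 1279, 1135 and 883 CPM at L3, lower at L10 (421, 660 and 685 CPM) and above both at Id2.

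In basal cells 11 of the 46 genes rose from L10 to Id2 and 1 fell, where 5.63% of all genes rose and 7.68% fell. The median change was 0.58 over the 46 genes and 0.06 over all genes. With replicate 4 as the only Id2 library 3 rose (*Gla*, *Glb1* and *Atp6v1b2*, the last 2 of which were also called with all 3) and 0 fell, where 1.46% and 1.82% of all genes did, and 40 of the 46 changes had the same sign as with all 3. The lone library is then assumed to vary like the other conditions. It also held fibroblast and pericyte markers, and which cells a call kept in it comes from was not tested. Without L10 replicate 6 the count of 11 was 5, and without Id2 replicate 2 it was 7. With the spread of basal L10 and Id2 alone, 0 rose and 0 fell. All 8 basal markers were called lower at Id2 than at L10 with all 3 libraries, and the part of cells with endothelial, fibroblast or pericyte markers in the values of basal Id2 was not tested.

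*Lgmn*, legumain, an asparaginyl endopeptidase that also processes cathepsins, was at 36.7 and 17.8 CPM in basal L10 and at 244, 66.0 and 115 CPM in Id2 replicates 2, 4 and 6, a log2 fold change of 2.22 ± 0.43 (SE), adjusted p = 0.000233 by limma. With replicate 4 alone it was 1.33 (adjusted p = 0.125 by limma), but against W10, where *Lgmn* was at 10.9 to 16.5 CPM, it was called with all 3 libraries (3.08 ± 0.39) and with replicate 4 alone (2.19 ± 0.50, adjusted p = 0.00154). *Glb1* was at 5.77 and 3.13 CPM in basal L10, the lowest of its basal values, and at 19.5, 24.4 and 42.3 CPM at Id2, a log2 fold change of 2.42 ± 0.36 (SE), and of 2.27 ± 0.47 with replicate 4 alone (adjusted p = 0.00178, limma). *Ctsh*, cathepsin H, an aminopeptidase, had the largest value, 4.18 ± 0.61 (SE), from 17.8 and 0.285 CPM at L10 to 103, 38.7 and 170 CPM at Id2. The low L10 library, replicate 6, held 3 reads of *Ctsh* and replicate 5 held 204. Without replicate 6 the change was 2.24 (adjusted p = 0.00907 by limma), and with Id2 replicate 4 alone it was 3.01 (adjusted p = 0.0122).

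Other genes that rose in basal cells were *Ctsc* (1.73), *Asah1* (1.31), *Ctsb* (1.23), *Lamp2* (1.33), *Scarb2* (1.15), *Atp6ap2* (1.56) and the V1 subunits *Atp6v1b2* (1.19) and *Atp6v1h* (1.08). *Ctsb* was at 416 and 398 CPM in basal L10 and at 1945, 669 and 668 CPM at Id2, the highest being replicate 2, the library with the endothelial markers. *Asah1* was at 38.6 and 25.2 CPM at L10 and 97.4, 71.2 and 69.8 CPM at Id2, and *Lamp2* was at 325 and 335 CPM and then at 989, 658 and 886 CPM. In these 3 genes every Id2 library was above both L10 libraries. *Atp6ap2* was at 24.1 and 18.8 CPM in basal L10 and at 74.5, 63.5 and 57.1 CPM at Id2. *Atp6v0d1*, at 64.6 and 53.3 and then at 116, 110 and 106 CPM, passed the FDR at 0.90. *Atp6v1b2*, the B2 subunit of the pump, was at 19.6 and 16.7 CPM and then at 43.3, 43.0 and 41.5 CPM, nearly the same in the 3 libraries, and remained called with replicate 4 alone. *Atp6v1h* was at 14.4 and 10.3 CPM and then at 25.8, 26.9 and 28.0 CPM. *Tfeb* was at 14.5 and 13.2 CPM in basal L10 and 6.40, 4.94 and 4.2 CPM at Id2, a log2 fold change of -1.28 ± 0.30 (SE), adjusted p = 0.00169 by limma. With replicate 4 alone it was -1.32 (adjusted p = 0.0386).

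Against W10, 13 genes were higher in basal Id2 and 2, *Ctsf* and *Npc1*, lower, where 8.78% and 8.58% of all genes were. With the spread of basal W10 and Id2 alone, 1 was higher and 0 lower. *Gla*, which removes terminal galactose from glycolipids, was at 10.4 to 15.5 CPM at W10 and at 39.4, 69.9 and 28.3 CPM at Id2 (1.65 ± 0.29), and *Atp6v0a1* was at 33.2 to 35.2 CPM and then at 113, 96.8 and 115 CPM (1.64 ± 0.21). With replicate 4 alone 4 were higher (*Lgmn*, *Gla*, *Atp6v0a1* and *Atp6v1h*) and *Ctsf* lower, where 5.39% and 3.92% of all genes were. From Id2 to Iw4 11 of the 46 fell in basal cells and 1, *Ctsf*, rose, where 9.27% of all genes fell and 8.14% rose. With the spread of basal Id2 and Iw4 alone, 1 fell and 0 rose. With replicate 4 alone 3 fell (*Lgmn*, *Gla* and *Atp6v0a1*) and 0 rose, where 5.71% fell and 3.68% rose, and the count of 11 was 4 without Id2 replicate 2 and 7 without Iw4 replicate 6.

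Whether luminal and basal cells differed in their change from L10 to Id2 was tested directly. The luminal change was larger than the basal one for *Ctsa* and smaller for *Ctsh*, 1 gene in each direction, where 2.24% and 1.49% of all genes were called. For *Ctsa* the luminal change of 1.78 stood against a basal change of 0.26, with basal libraries at 128 and 219 CPM in L10 and 268, 199 and 152 CPM at Id2. The difference was 1.53, adjusted p = 0.00504 by limma. For *Ctsh* the luminal libraries were at 139, 99.5 and 128 CPM in L10 and 115, 146 and 188 CPM at Id2, and the difference was -3.90, adjusted p = 0.00199 by limma. For *Glb1* the luminal change of 0.83 stood against the basal change of 2.42, a difference of -1.59 that did not pass the test (adjusted p = 0.0303 by limma). With basal replicate 4 alone neither *Ctsa* nor *Ctsh* was called (1.54 and -2.74, adjusted p = 0.0323 and 0.11 by limma), and 0 genes of the 46 were, where 0.375% and 0.223% of all genes were.

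The subtypes were then compared at each time point, and the difference between time points was not tested. Of the 46 genes, 3 to 7 were lower in basal than in luminal cells at W10 (5, where 5.12% of all genes were), P3.5 (3, 4.64%), P14.5 (7, 3.39%), Iw4 (3, 3.75%) and M4 (3, 4.24%). At L3 16 were lower (9.87% of all genes), at L10 12 (10.9%) and at Id2 17 (9.39%), and with replicate 4 alone at Id2 19 were lower (5.25%) and 0 higher (8.97%), 13 of the 19 being among the 17. At an unadjusted p under 0.05 by limma 19 were lower at W10, 8 at P3.5, 19 at P14.5, 30 at L3, 23 at L10, 34 at Id2, 18 at Iw4 and 13 at M4. With the spread of the compared conditions alone 8 were called lower at L3, 2 at L10, 2 at Id2 and 3 at each of the other time points. Higher in basal cells were 3 at W10 (9.1% of all genes), 2 at P3.5 (7.27%), 2 at P14.5 (9.54%), 1 at L3 (15.9%), 1 at L10 (13.8%), 2 at Id2 (12.2%), 1 at Iw4 (7.79%) and 1 at M4 (8.2%). At P14.5 the count of 7 was 0 without basal replicate 3 and 0 to 5 without each library in turn.

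*Lipa* and *Atp6v1b2* had lower means in basal cells at every time point. *Lipa* differed by -2.20 to -3.49 on the log2 scale, and was called at all 8 time points. Its basal libraries at L10 held 101.2 and 117 CPM and its luminal ones 714, 572 and 913 CPM. *Atp6v1b2* differed by -0.92 at P14.5, where it was not called, and by -1.07 or more in size at the other 7 time points, where it was. *Ctsh* was lower in basal cells and called at all time points but P14.5 and Id2. Of the 46, *Hexa* and *Ctsf* were the genes with the highest mean difference toward basal cells. *Hexa*, the alpha subunit of beta-hexosaminidase, was at 13.5 and 35.6 CPM in basal L10 and 1.46, 4.71 and 1.30 CPM in luminal L10, a difference of 2.85 ± 0.52, and was called at P14.5, L10 and Id2. At Id2 it was not called with replicate 4 alone. *Ctsf*, cathepsin F, was at 27.4, 23.2 and 34.0 CPM in basal W10 and 4.13, 4.98 and 7.34 CPM in luminal W10, a difference of 2.18 ± 0.39, and was called at W10, P3.5, P14.5, Iw4 and M4 but not in lactation or at Id2. *Ctsd* passed the test only at L3, L10 and Id2, at -2.22 ± 0.28, -1.46 ± 0.32 and -2.40 ± 0.28.

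**Figure D5:**
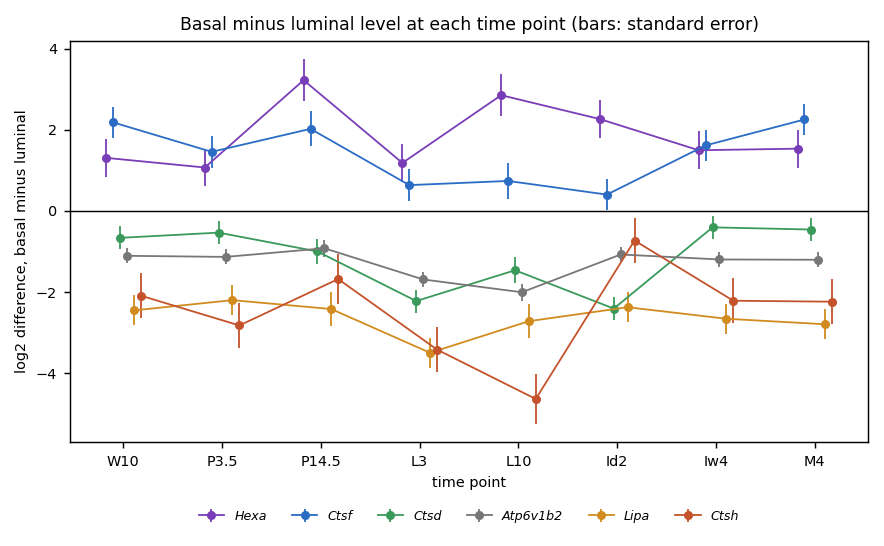
Log2 difference between basal and luminal cells at each time point for 6 genes, with standard errors from limma. Values above 0 are higher in basal cells. *Hexa* and *Ctsf* lie above 0 and *Lipa* and *Atp6v1b2* below it throughout, and *Ctsd* moves from -2.40 at Id2 to -0.40 at Iw4.

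Other basal steps each called few genes. From W10 to P3.5 *Ctsz* rose and *Ctsl* and *Lipa* fell, where 4.97% of all genes rose and 1.79% fell, and without each W10 or P3.5 library in turn 0 rose and 0 or 1 fell. The median over genes with a mean of at least 5 CPM was -0.12 on the log2 scale in this comparison. *Ctsl* was at 1074, 877 and 968 CPM in basal W10 and 288, 500 and 560 CPM at P3.5. From P3.5 to P14.5 *Lipa* and *Hexa* rose and *Gla* fell (2.46% and 1.18% of all genes), and from P14.5 to L3 *Tfeb* rose by 1.33 ± 0.30 (SE) and *Atp6ap2* fell by 1.88 (2.2% and 1.69% of all genes). From L3 to L10 *Glb1* fell by 2.00 (0.679% of all genes, and 0.457% rose). Each of the last 3 steps rests on a group of 2 libraries. In basal P14.5 replicates 3 and 5 *Lipa* was at 76.2 and 283 CPM, and the milk protein genes took 0.629% and 5.25% of all reads. At basal P3.5 these were 32.2 to 36.3 CPM and 0.0531% to 0.0695%. The part of luminal cells in the basal libraries was not tested.

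Other genes of the pathway were read from lists of 90 genes in all. From L10 to Id2 in luminal cells 9 of the 90 rose and 1 fell (2.15% and 2.41% of all genes), and against W10 22 were higher and 2 lower (6.23% and 4.14% of all genes). Of 23 further hydrolases 6 rose from L10 to Id2 (5 by edgeR), among them *Pla2g15*, lysosomal phospholipase A2 (3.57 ± 0.51, from a mean of 2.68 CPM to 39.4), *Galc*, galactocerebrosidase (1.89 ± 0.32), *Aga* (1.77 ± 0.43) and *Ppt1* (1.10 ± 0.26). Of 9 genes for delivery by mannose 6-phosphate 0 were called at a fold of 2 by limma or edgeR from L10 to Id2 (3 were higher and 1 lower at an unadjusted p under 0.05, and *Igf2r* passed the FDR at 0.94 ± 0.19), and 4 were higher against W10, *Igf2r*, *Gnptab*, *Gnptg* and *Nagpa*, which make or read the mannose 6-phosphate tag. Of 15 genes of the TFEB relatives and the mTORC1 arm *Fnip1* (1.69 ± 0.31) and *Lamtor5* (1.35 ± 0.35) rose, where edgeR called 1 gene. Of 16 autophagy genes 0 were called by limma or edgeR (at an unadjusted p under 0.05, 3 were higher and 1 lower), and of 8 further cathepsins and inhibitors 0 (1 higher and 0 lower). Of 6 other V-ATPase subunits *Atp6v1c2* fell by 2.44, where edgeR called 0, and against W10 *Atp6v1b1*, a subunit used by acid-secreting cells, fell by 4.88, from 150 CPM at W10 and 21.2 CPM at L10 to 4.22 CPM at Id2.

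In basal cells 10 of the 90 rose from L10 to Id2 and 4 fell with all 3 Id2 libraries, where 5.63% of all genes rose and 7.68% fell, so that the share that fell was not above that of all genes. With replicate 4 alone 0 of the 90 were called by limma in either direction (7 higher and 11 lower at an unadjusted p under 0.05), where 1.46% and 1.82% of all genes were. The 14 changes called with all 3 libraries kept their sign. Some were of similar size, such as *Gga3* at -2.20 against -2.14 on the log2 scale with all 3 and *Galc* at 1.17 against 1.24. Others were smaller, such as *Aga* at 1.32 against 2.36, *Man2b2* at 0.69 against 1.56 and *Laptm4a* at 0.38 against 1.04. With all 3 libraries *Galc*, *Aga* and *Fnip1* were among those called in both subtypes. The 4 that fell were *Gga1* and *Gga3*, adaptors of enzyme sorting, and *Map1lc3a* and *Ulk1* of autophagy, and 0 of the 6 other V-ATPase subunits and 0 of the 8 cathepsins and inhibitors were called by limma or edgeR (0 and 2 at an unadjusted p under 0.05). From Id2 to Iw4 in luminal cells 23 of the 90 fell and 2 rose (6.12% and 4.39% of all genes), the 2 being *Atp6v1b1* and *Atg12*.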

How the data were processed

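The authors sorted cells from pools of 4 mice, amplified the RNA, aligned reads with GSNAP (2012-07-20) to the NCBI build of the mouse genome known as mm9 and counted them per gene with HTSeq, without a stated use of strand. They removed genes of low CPM, some genes of very many reads, and 1 outlier library. They deposited a table of signal values, counts scaled to CPM with edgeR, for 46 libraries and 17078 genes. A further basal P14.5 library was not analysed here. Whole reads were recovered from 100% of the values (within 0.01 of a read).

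log2(CPM + 1) was fitted with limma 3.58.1 (R 4.3.3, trended variance) with 16 condition means over all libraries, p-values being adjusted over all genes. edgeR 4.0.16 on the recovered reads was an alternative, and no test was made over a list. Replicates are separate pools of mice. Luminal and basal libraries with the same time point and replicate number were taken to come from 1 sort of the same mice. Their deviations from the condition means correlated above 0.1 in 17 of 22 pairs (median 0.31), and the sort was a block in an alternative.

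The 46 genes and all other lists were chosen with earlier results of these data known. Values in the libraries of the groups compared, and not at all time points, are given, per role, for the 2 genes that changed most from L10 to Id2 in each subtype and the most abundant one, for *Tfeb* and *Ctss*, and for the 2 genes that differed most between subtypes in that change and in level each way. Other genes shown with values were chosen after these were seen, and some genes of the further lists are not reported here. Promoters came from RefSeq (GRCm38.p6), and exon lengths and overlaps from GENCODE vM21, not the build of the alignments. The scripts were tested on simulated data. Floors cover counting error only.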

Additional observations from a re-analysis of the deposited data

Results flagged for a closer look

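The change from L10 to Id2 differed between luminal and basal cells for 2 of the 46 genes by the interaction term of limma. There was 1 in each direction, where 2.24% and 1.49% of all genes were called. The count is therefore close to that of all genes in this fit. Of the 17078 genes, 637 were called in this fit, 1086 with the sort as a block and 364 by edgeR. Of the 46 genes, 2 were called with the block and 1 by edgeR. For *Ctsa* the luminal change was larger by 1.53 ± 0.36 (SE) on the log2 scale (adjusted p = 0.00504), and the call was lost without luminal L10 replicate 5 (1.45, adjusted p = 0.0123), basal L10 replicate 6 (1.14, adjusted p = 0.0951), luminal Id2 replicate 2 (1.43, adjusted p = 0.0153) or basal Id2 replicate 6 (1.33, adjusted p = 0.0207), by limma in each case. For *Ctsh* the luminal change was smaller, at -3.90 ± 0.82 (adjusted p = 0.00199 by limma). It rests on basal L10 replicate 6, which held 3 reads of *Ctsh*: without that library it was -1.97 (adjusted p = 0.112), and edgeR gave -3.22 (adjusted p = 0.0238).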

How the results depend on the processing

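The read totals, groups of 2 or 3 libraries and the state of the basal Id2 libraries set the limits here. In the comparisons of Id2 with L10 and with W10 and in the interaction, no called value turned its direction under the alternatives. Of all 46 changes, called or not, 40 to 45 kept their sign with basal replicate 4 alone at Id2, depending on the comparison. Over the 46 genes in the comparisons of Id2 with L10 and with W10 in each subtype and in the interaction, 230 values in all, edgeR left 225 calls as they were (4 lost, 1 gained), a pseudocount of 0.1 left 228, median-ratio scaling 221, testing only genes with a mean of at least 5 CPM 227, and the replicate block (the sort) all 230. The replicate block changed only 1 count, genes higher in basal cells at M4 (from 1 to 2).

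The spread taken from the compared conditions alone, which leaves few degrees of freedom, changed most. In luminal cells the counts went from 11 higher and 1 lower to 0 and 0 (Id2 against L10), from 30 to 10 higher (Id2 against W10), from 1 to 0 lower (P3.5 against W10), from 9 to 0 higher (L3 against P14.5) and from 28 to 14 lower (Iw4 against Id2). In basal cells they went from 11 and 1 to 0 and 0 (Id2 against L10), 13 and 2 to 1 and 0 (Id2 against W10), 2 and 1 to 0 and 0 (P14.5 against P3.5), 1 and 1 to 0 and 0 (L3 against P14.5), 1 to 0 lower (L10 against L3) and 1 and 11 to 0 and 1 (Iw4 against Id2). The interaction went from 1 and 1 to 0 and 0. For basal against luminal cells, W10 went from 3 and 5 to 1 and 3, P3.5 from 2 to 1 higher, P14.5 from 2 and 7 to 1 and 3, L3 from 16 to 8 lower, L10 from 1 and 12 to 0 and 2, Id2 from 2 and 17 to 0 and 2, Iw4 from 1 to 0 higher and M4 from 1 to 2 higher.

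Basal replicate 4 alone at Id2, chosen after seeing the data, gave 3 and 0 in place of 11 and 1 (Id2 against L10), 4 and 1 in place of 13 and 2 (W10), 0 and 3 in place of 1 and 11 (Iw4 against Id2), 0 and 0 in the interaction, and 0 higher in basal than luminal cells in place of 2. It has fewer libraries. For the changes that follow the cause was not tested. An FDR of 0.05 gave 5 higher for luminal P14.5 against P3.5, 1 higher for luminal Iw4 against Id2, 2 lower for basal L3 against P14.5 and for basal L10 against L3, 3 and 2 for the interaction, and 2 higher in basal cells at L3, Iw4 and M4. With any fold 5, 7 and 5 were lower in basal cells at P3.5, Iw4 and M4. edgeR gave 1 lower for basal P3.5 against W10, 1 higher and 0 lower for basal P14.5 against P3.5, 0 higher for basal Iw4 against Id2 and 0 lower for the interaction. Median-ratio scaling gave 1 lower for basal Id2 against W10, 0 higher for basal P3.5 against W10 and for basal Iw4 against Id2, and for basal against luminal cells 1 higher at P3.5, 4 lower at P14.5, 2 higher at L10 and 5 lower at M4. A pseudocount of 0.1 gave 0 higher for basal Iw4 against Id2.

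Each library was left out in turn. In the comparisons of Id2 with L10 and with W10 and in the interaction, 1469 of 1564 values of single genes, called or not, stayed as they were. There, 68 calls were lost and 27 gained. The counts that moved by over 1.5 times ranged as follows. In luminal cells, 0 to 1 fell for Id2 against L10 and for P3.5 against W10, 5 to 12 rose and 0 to 1 fell for L3 against P14.5, and 0 to 1 rose and 18 to 26 fell for Iw4 against Id2. In basal cells, 5 to 12 rose and 0 to 1 fell for Id2 against L10, 1 to 2 fell for Id2 against W10, 0 rose and 0 to 1 fell for P3.5 against W10, 0 to 1 rose and 0 to 1 fell for P14.5 against P3.5 and for L3 against P14.5, 0 to 1 rose and 0 to 2 fell for L10 against L3, and 0 to 1 rose and 4 to 13 fell for Iw4 against Id2. The interaction gave 0 to 3 higher and 0 to 1 lower. For basal against luminal cells, W10 gave 3 to 8 lower, P3.5 0 to 2 higher, P14.5 1 to 2 higher and 0 to 5 lower, L3 1 to 2 higher, L10 0 to 2 higher, Id2 1 to 2 higher, Iw4 0 to 2 higher and 2 to 5 lower, and M4 3 to 6 lower.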
